A study of Mus musculus with 6 samples.

Results

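The miR-532, miR-188, miR-362, miR-501 and miR-500 hairpins lie close together in 1 intron of the mouse gene Clcn5, and their mature arms were measured in extracellular vesicles from old and young muscle. The members were chosen as 9 mature miRNA identifiers out of 2110 loci in the deposited count table, and 9 rows were found. Of these, 8 are arms of the 5 Clcn5 hairpins: miR-532-5p (MIMAT0002889), miR-532-3p (MIMAT0004781), miR-188-5p (MIMAT0000217), miR-362-5p (MIMAT0000706), miR-362-3p (MIMAT0004684), miR-501-5p (MIMAT0003508), miR-501-3p (MIMAT0003509) and miR-500-3p (MIMAT0003507). The data go against the label of the other one. The identifier given for miR-660-5p (MIMAT0003711) stands in the table at chromosome X, 142739060 to 142739080 on the plus strand (mm10), where RefSeq and GENCODE place Mir652 in introns of Tmem164. It is called miR-652-3p here and is described apart from the Clcn5 arms, and miR-660 was not analysed here.

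Small RNA was sequenced from vesicles, called exosomes in the labels, that were collected from the muscle of old mice (3 libraries) and of young mice (3 libraries). The labels used here name no strain, sex, age in months, muscle, isolation method, treatment or allele. They also leave unsaid whether replicates were separate animals, so the spread behind each p-value is that between libraries and could be technical.

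Clcn5 encodes an endosomal exchanger of chloride and protons that is best known from the kidney, where its loss in humans causes Dent disease. A hairpin in an intron is cut from the host transcript by Drosha and Dicer into a short duplex, and usually 1 of its strands is kept in Argonaute as the guide while the other is degraded. The guide finds its targets mainly through the seed, bases 2 to 8 from its 5′ end. Hairpins of 1 transcript can still differ widely in mature level, since cleavage, strand choice and decay act on each one. In mouse muscle, miR-501 has been studied in activated muscle stem cells, and miR-188 has been studied in mouse bone marrow stromal cells, where it is linked to their ageing.

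The Clcn5 hairpins span 10815 bases (chromosome X, 7237683 to 7248497, minus strand, mm10) and sit in 1 intron of 103648 bases (7213011 to 7316658) in all 3 annotated Clcn5 transcripts that reach across them. Along the transcript, Mir532 comes first, and Mir188 follows after a gap of 345 bases. Mir362 lies a further 5942 bases downstream, Mir501 follows after 630 bases and Mir500 after 3468 bases. None of the member loci overlaps another locus of the table. Reads were counted without regard to strand, so sense and antisense reads at a locus cannot be told apart.

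The mature sequences show which arms could act on the same targets and which could be confused in mapping. They are from RefSeq (GRCm38.p6), 5′ to 3′, with the seed in capitals. RefSeq sequences were matched for 8 of the 9 members, and miR-532-5p is the member without one. miR-500-5p, an arm of these hairpins that is not a member, is shown because it shares the seed of miR-362-5p.
miR-500-3p: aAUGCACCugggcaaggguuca
miR-501-3p: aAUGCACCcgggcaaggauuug
miR-362-5p: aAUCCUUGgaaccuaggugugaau
miR-500-5p: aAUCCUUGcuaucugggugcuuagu
miR-501-5p: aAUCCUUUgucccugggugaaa
miR-362-3p: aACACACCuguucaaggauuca
miR-188-5p: cAUCCCUUgcaugguggaggg
miR-532-3p: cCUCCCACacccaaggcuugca
miR-652-3p: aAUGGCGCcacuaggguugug

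miR-500-3p and miR-501-3p have the same seed and are identical at 18 of 22 positions. Counted from 1 at the 5′ end, with miR-500-3p given first, they differ by U9C, G18A, C21U and A22G. miR-362-5p and miR-500-5p share the seed AUCCUUG but only 16 of 24 positions compared. miR-501-5p differs from that seed at 1 base, by G8U relative to miR-362-5p. Other identifiers with these seeds were sought only among the 1734 of 2110 loci with a matched RefSeq sequence, and the seed of miR-532-5p was not searched. Outside these hairpins, 1 such identifier has the seed of miR-362-3p (miR-329-3p) and 1 has that of miR-188-5p (miR-7061-3p). Both were listed at 0 in every library.

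The hairpins also show where the abundant strand lies. The arm that held most of the counts is in capitals, towards the 5′ end of Mir362 and towards the 3′ end of Mir501 and Mir500.
Mir362: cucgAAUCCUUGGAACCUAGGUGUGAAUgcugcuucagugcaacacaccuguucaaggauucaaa
Mir501: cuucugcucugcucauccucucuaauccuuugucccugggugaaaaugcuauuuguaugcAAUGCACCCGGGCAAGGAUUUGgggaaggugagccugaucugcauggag
Mir500: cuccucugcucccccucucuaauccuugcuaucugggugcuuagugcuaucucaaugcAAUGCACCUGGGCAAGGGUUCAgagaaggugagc

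Library totals ran from 904892 (replicate 1) to 1417733 counts in old and from 1459826 to 1706396 counts in young muscle. Old replicate 1 stood apart: miR-21a-5p, the most abundant vesicle miRNA, took 35.4% of its counts, against 49.0% and 52.9% in the other old libraries and 49.5% to 51.9% in the young ones. The chi-square statistic per degree of freedom was 179 and 286 for its counts against those of old replicates 2 and 3, and 14.8 to 31.2 for other pairs within a group. Values below without this library are given where they matter. All 4 skeletal muscle marker miRNAs were counted, with a summed level, most of it miR-206-3p, of 48676 to 89679.7 CPM in old and 50345 to 60528 CPM in young libraries. Red blood cell markers (2 of 2 counted) summed to 41254 to 48338 CPM in old and 40568 to 42827 CPM in young. Both endothelial markers and the leukocyte marker miR-142a-3p were at 0 in every library, and each of these loci overlaps another on the opposite strand, where the counting used assigns no reads, so their amount cannot be read from the table. CPM here means counts scaled to a common library size (counts per 1e+06) after TMM, a method that equalises the bulk of the loci between libraries. It is relative to the other counted miRNAs and does not give an amount per vesicle, and fewer vesicles from a cell type cannot be told apart from less miRNA in each.

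The sources do not say which measured values the list was selected on. It was drawn up with the counts of this table in view, so that the levels of its members are a description. miR-362-3p was the weakest arm on the list, with a mean of 13.8 counts per library, and the arms of these hairpins left off it were miR-500-5p with 5.17 and miR-188-3p with 0.67. All 9 members had counts in every library, and all 9 passed the filter on low counts with which 347 loci were tested.

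A single arm, miR-532-5p, carried nearly all of the signal from the intron. It had 14552, 10713 and 12942 CPM in old replicates 1 to 3 and 15676, 13136 and 13386 CPM in the young ones. Old replicate 1 thus lay inside the young range, old replicate 3 just under it and old replicate 2 well below it. With a mean of 13401 CPM over all libraries it ranked 12 of all loci, and it made up 96.5% ± 1.11 of the counts of the 8 Clcn5 arms in old and 95.5% ± 0.788 in young libraries (SD, n = 3 each). Together the 8 arms took 1.33% ± 0.273 of all counts in old and 1.47% ± 0.14 in young libraries, and the groups overlapped.

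The other Clcn5 arms formed a low tier, although they come from the same intron. Over all 6 libraries, miR-532-5p had 78.3 times the level of miR-501-3p, 109.8 times that of miR-500-3p and 114 times that of miR-362-5p. The gap was 287-fold to miR-188-5p, whose hairpin begins 345 bases downstream of Mir532, and 1370.5-fold to miR-362-3p. It was the highest Clcn5 arm in each of the 6 libraries.

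Within the low tier, miR-501-3p came first with a mean of 171 CPM over all libraries. miR-500-3p (122 CPM) and miR-362-5p (118 CPM) followed, and their order went with the group: miR-500-3p was the higher one in all 3 old libraries and miR-362-5p in all 3 young ones, a difference that was not tested. miR-501-3p was above each of them in 5 of 6 libraries, the exception being old replicate 1, where it had its lowest value. miR-532-3p (50.9 CPM) and miR-188-5p (46.7 CPM) were not ordered, each higher in 3 of 6 libraries, with old and young ones among them. miR-188-5p was above miR-501-5p (36.9 CPM) in 4 of 6. miR-362-3p was lowest with 9.78 CPM. Mature arms are of nearly equal length, 21 to 25 bases, so no correction for length was made, but ligation and amplification can favour some small RNA ends over others, which was not tested.

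**Figure D1:**
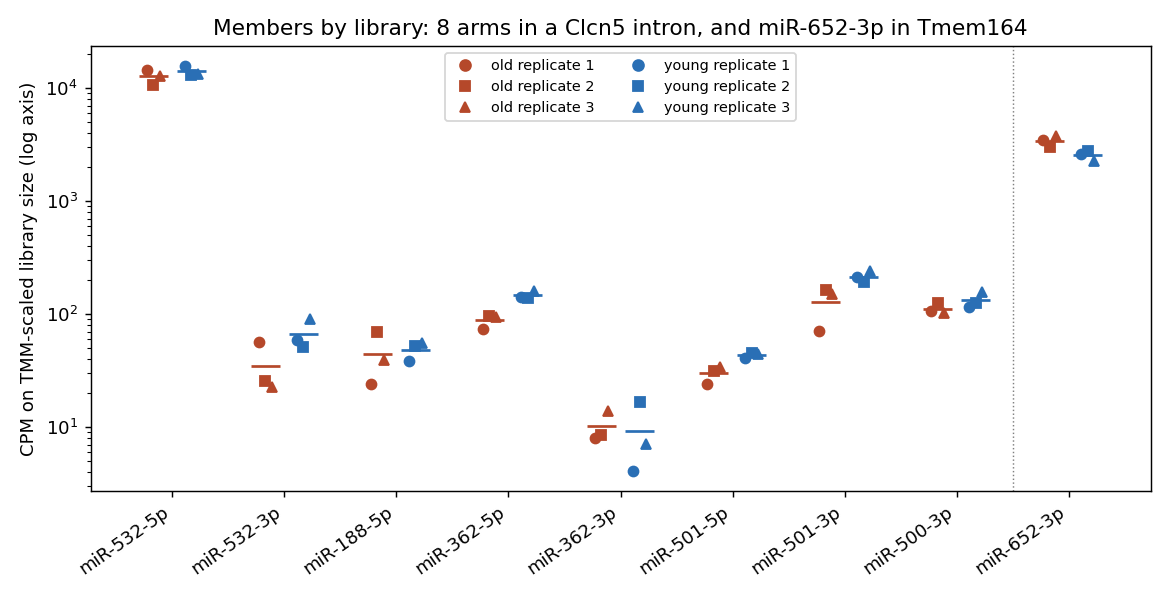
CPM on TMM-scaled library sizes (log axis) for each member, with 1 point per library, old to the left of young, and bars for the means of 3 libraries. miR-532-5p, between 10713 and 15676 CPM, stands far above the other Clcn5 arms, none of which exceeds 239 CPM, and miR-652-3p of Tmem164 is shown to the right of the dotted line.

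The abundant strand was not on the same side in all hairpins. Mir532, Mir188 and Mir362 were read mostly from the 5p arm. miR-532-5p held 99.7% ± 0.109 of the Mir532 counts in old and 99.5% ± 0.167 in young libraries, and miR-188-5p held 98.4% ± 1.95 and 99.6% ± 0.664 of the Mir188 counts in old and in young ones. miR-362-5p held 89.7% ± 2.43 of the Mir362 counts in old and 94.1% ± 4.25 in young libraries. Mir501 and Mir500, the hairpins with the shared 3p seed, were read mostly from the 3p arm. miR-501-3p held 79.9% ± 4.88 of the Mir501 counts in old and 82.9% ± 1.72 in young libraries, and miR-500-3p held 97.7% ± 3.02 and 97.0% ± 2.09 of the Mir500 counts in old and in young ones (SD, n = 3 each). Mir501 was thus the least one-sided of the 5 hairpins in both groups.

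The minor arms rest on few reads. miR-188-3p was at 0 in old replicate 1 and in young replicates 1 and 2. A set floor of 3 counts corresponds to 3.02 CPM in old replicate 1 and to 2.07 and 1.80 CPM in these young ones. The 95% Poisson interval of a count of 0 reaches somewhat higher, to 3.69 counts. In the other libraries miR-188-3p had 1 and 2 counts in old replicates 2 and 3 and 1 count in young replicate 3. miR-500-5p had 0, 2 and 8 counts in old replicates 1 to 3, against 1, 9 and 11 in the young ones. The Poisson interval covers counting error only.

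**Figure D2:**
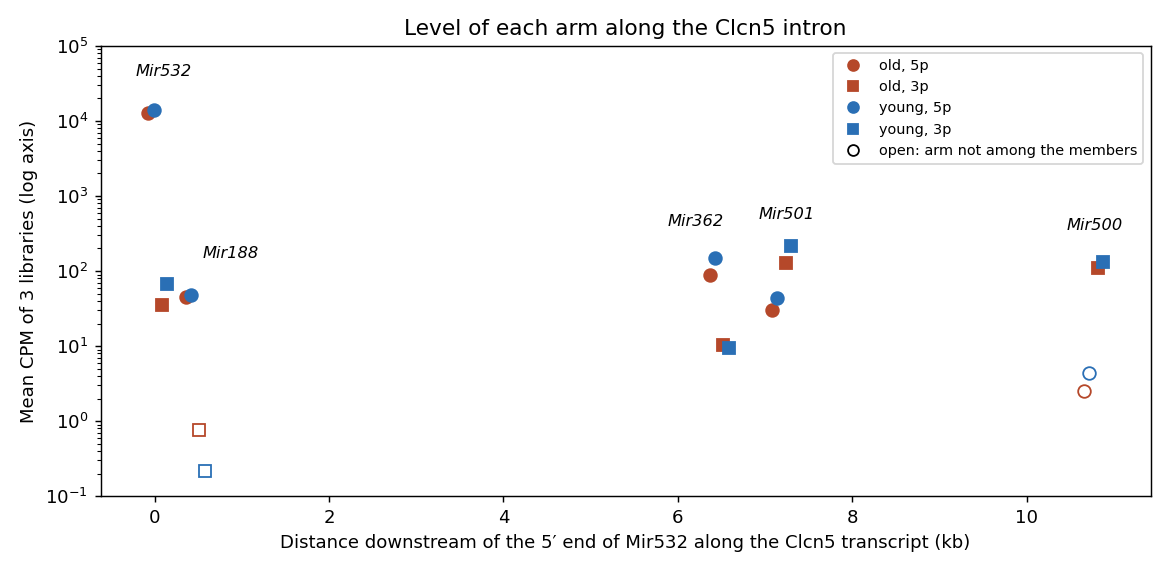
Mean CPM of 3 libraries (log axis) for every arm of the 5 Clcn5 hairpins, against distance in kb downstream of the 5′ end of Mir532; circles are 5p arms, squares 3p arms, filled for members and open for other arms, with groups and arms shifted slightly sideways for legibility. The 5p arm is the higher one at Mir532, Mir188 and Mir362 and the 3p arm at Mir501 and Mir500, in old and in young libraries.

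Ratios of the arms of 1 hairpin do not depend on scaling, and 4 hairpins had both arms above 10 counts on average. The log2 ratio of miR-532-5p to miR-532-3p was 8.0, 8.68 and 9.14 in old replicates 1 to 3, against 8.04, 8.0 and 7.2 in the young ones. Old replicates 2 and 3 lay above all young libraries, but old replicate 1 did not, and the means differed by 0.86 (exact permutation p = 0.2, two-sided, n = 3 each), and by 0.59 to 1.16 when each library was left out. For Mir362 the log2 ratio of 5p to 3p was 3.11, 3.44 and 2.72 in old, against 4.98, 3.03 and 4.46 in young libraries, a difference of -1.07 (exact permutation p = 0.3) that was -0.66 without young replicate 1 and -1.63 without young replicate 2. For Mir501 it was -1.52, -2.37 and -2.12 in old, against -2.35, -2.08 and -2.40 in young libraries, a difference of 0.27 (exact permutation p = 0.6) that became 0.03 on leaving out old replicate 1 and 0.45 on leaving out old replicate 2. With Mir652 (difference -0.95, exact permutation p = 0.2) the groups overlapped in all 4 ratios, and adjusted over these 4 the exact permutation p-values were 0.4 to 0.6. With 3 libraries a group the smallest p of this exact test is 0.1.

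The comparison of old with young vesicles asked whether the arms of this intron differ in relative level with the age of the muscle. None of the 9 members passed edgeR's quasi-likelihood test at an adjusted p of 0.05, where 4.32% of the 347 loci did (3.46% higher and 0.865% lower in old). At an unadjusted p under 0.05, 4 of 9 members passed by the same tool (22.5% of all loci), namely miR-362-5p, miR-501-3p, miR-532-3p and miR-652-3p. DESeq2 gave an adjusted p for 293 loci, not for miR-362-3p, and called 7.85% of them (14 higher and 9 lower), among them 1 member, miR-362-5p. The groups did not overlap for 4 of 9 members, miR-362-5p, miR-501-3p, miR-501-5p and miR-652-3p, and for 27.1% of all loci. Log2 fold changes, old over young, were below 0 for 7 of the 8 Clcn5 arms with a median of -0.40, while 47.6% of all tested loci were below 0 and their median was 0.04. These arms share a host transcript and were chosen with results in view, so the count is a description.

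miR-362-5p came closest to the threshold. It had 73.6, 96.7 and 93.9 CPM in old replicates 1 to 3 and 141, 139.6 and 162 CPM in the young ones. Every old library was below every young one, which held for 13.0% of all tested loci in this direction. The mean was 88.1 ± 12.6 CPM in old and 148 ± 12.6 CPM in young libraries (SD, n = 3 each), a log2 fold change of -0.74 ± 0.21 (SE, edgeR adjusted p = 0.0545). Without old replicate 1 it was -0.61 and passed (edgeR adjusted p = 0.0443), among 45 of 359 loci tested. DESeq2 on all libraries, which called 23 of 293 loci, also called it (DESeq2 adjusted p = 0.0145). It passed in these 2 of 12 alternatives and not in the other 10, and the adjusted p ranged from 0.0145 to 0.191 over all 12. Its partner arm miR-362-3p had 8.07, 8.59 and 14.0 CPM in old and 4.14, 16.8 and 7.06 CPM in young libraries. The old values lay inside the young range, and the log2 fold change of 0.12 ± 0.54 (edgeR adjusted p = 0.926) turned below 0 without old replicate 3 (-0.19), young replicate 1 (-0.26) or young replicate 3 (-0.06), and was 0.86 without young replicate 2.

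Both arms of Mir501 were separated between the groups as well. miR-501-3p, the main product of the hairpin, had 70.6, 164 and 149.8 CPM in old replicates 1 to 3, against 212, 192 and 239 CPM in the young ones. All old values were below the young range, and old replicate 1 was by far the lowest. The log2 fold change was -0.73 ± 0.26 (edgeR adjusted p = 0.139). Without old replicate 1 it was -0.43 (edgeR adjusted p = 0.142). Without old replicate 3 it was -0.84 and passed (edgeR adjusted p = 0.0473), among 29 of 360 loci tested. This was its only pass in 12 alternatives, over which the adjusted p was 0.0473 to 0.34. The minor arm miR-501-5p had 24.2, 31.5 and 34.2 CPM in old, against 41.4, 45.1 and 44.9 CPM in young libraries. Its groups did not overlap either, with a log2 fold change of -0.54 ± 0.27 (edgeR adjusted p = 0.262).

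miR-500-3p, with the seed of miR-501-3p, was less separated. It had 106, 125 and 102 CPM in old and 117, 126 and 157 CPM in young libraries. Old replicate 2 lay inside the young range, and the log2 fold change was -0.26 ± 0.21 (edgeR adjusted p = 0.531). The values of miR-500-3p and miR-501-3p are set side by side here, and the difference between them was not tested.

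The arms of Mir532 and Mir188, at the upstream end of the group, gave a mixed picture. The abundant miR-532-5p had a log2 fold change of -0.14 ± 0.17 (edgeR adjusted p = 0.710). Its partner miR-532-3p had 56.5, 25.8 and 22.5 CPM in old replicates 1 to 3 and 59.3, 51.1 and 90.4 CPM in the young ones, so that old replicate 1 lay among the young libraries while the other old libraries lay below them. The log2 fold change was -0.97 ± 0.34 (edgeR adjusted p = 0.139), and -1.44 without old replicate 1. There miR-532-3p passed (edgeR adjusted p = 0.00048), among 45 of 359 loci tested. This was its only pass in 12 alternatives, with an adjusted p of 0.00048 to 0.38 over them. miR-188-5p had 24.2, 70.2 and 39.6 CPM in old and 38.6, 52.3 and 55.2 CPM in young libraries. The old libraries spread on both sides of the young range, and the log2 fold change of -0.11 ± 0.33 (edgeR adjusted p = 0.881) took values of 0.20 and -0.59 when old replicate 1 or old replicate 2 was left out.

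**Figure D3:**
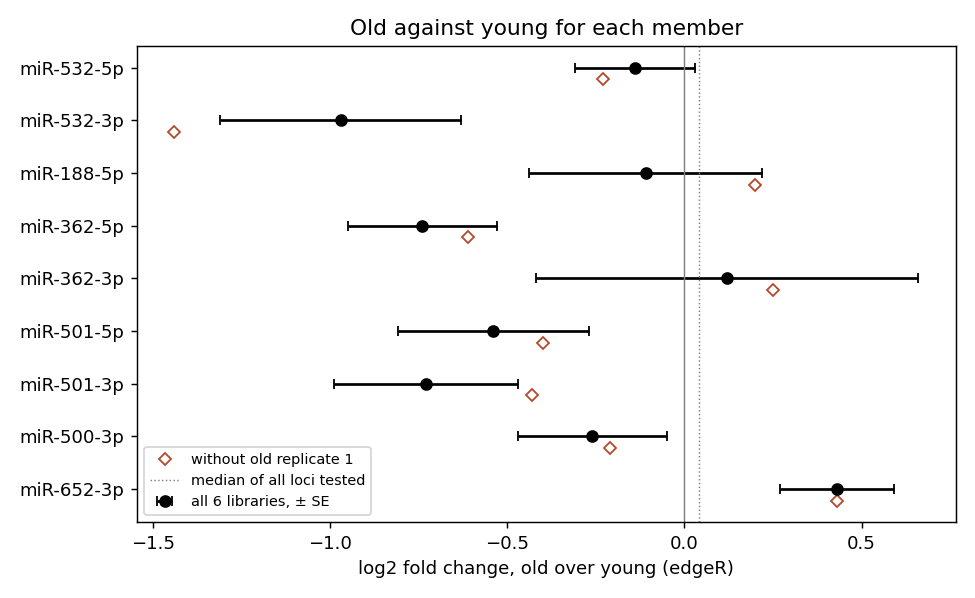
Log2 fold changes, old over young, from edgeR with all 6 libraries (black, bars are the SE) and without old replicate 1 (open diamonds). Of the 8 Clcn5 arms 7 lie below 0 with all libraries, and without old replicate 1 the values of miR-532-3p (-0.97 and -1.44), miR-188-5p (-0.11 and 0.20) and miR-501-3p (-0.73 and -0.43) move most. The dotted line is the median of all loci tested.

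Summed without miR-532-5p, the other 7 Clcn5 arms had 363, 521 and 456 CPM in old, against 613, 623 and 755 CPM in young libraries, a sum chosen after the values were seen. The groups did not overlap, and the old mean of 447 ± 79.6 CPM was 0.673 times the young mean of 664 ± 79.2 CPM (SD, n = 3 each). Leaving out each library in turn gave differences, old minus young, of -254 to -171 CPM. With miR-532-5p included the 8 arms summed to 13182 ± 1849.6 CPM in old and 14729.7 ± 1364 CPM in young libraries, and the groups overlapped. Some marker miRNAs of cell types were also separated between the groups. Of the 4 leukocyte markers, 3 were counted, and their sum was 840 to 983 CPM in old, against 1126 to 1320.1 CPM in young libraries. This gap lay in miR-155-5p, with 382 to 434 CPM in old and 646 to 841 CPM in young, while miR-223-3p, with 246 to 317 CPM in old and 247 to 259.9 CPM in young, and miR-150-5p, with 173 to 284 and 222 to 234 CPM, had old values on both sides of the young range. Of the 4 skeletal muscle markers, 3 were higher in every old library than in any young one: miR-1a-3p with 2531 to 3436 CPM in old and 1502 to 2132 CPM in young, miR-133a-3p with 3745 to 5555 and 2132 to 2485 CPM, and miR-499-5p with 1434 to 1629.8 and 686 to 823 CPM. The remaining marker, miR-206-3p, which held most of the muscle sum, had old values on both sides of the young range. It had 39284 to 79255 CPM in old and 46023 to 55441 CPM in young libraries. The part of these markers in the differences of the Clcn5 arms was not tested.

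Whether the low tier moved relative to miR-532-5p was read from their ratios within each library, also chosen after the values were seen. The log2 ratio of miR-362-5p to miR-532-5p was -7.62, -6.79 and -7.10 in old replicates 1 to 3 and -6.79, -6.55 and -6.36 in the young ones. Old replicates 1 and 3 lay below the young range and old replicate 2 at its lower edge, with a difference of -0.60 (exact permutation p = 0.2, two-sided). For miR-501-3p the log2 ratio was -7.68, -6.03 and -6.43 in old, against -6.21, -6.09 and -5.81 in young libraries. The difference of -0.67 (exact permutation p = 0.3) was -0.19 without old replicate 1. For all 7 arms the groups overlapped, the exact permutation p was 0.2 to 1.0, and adjusted over the 7 ratios it was 0.525 to 1.0. A change of these arms apart from miR-532-5p was therefore not resolved with 3 libraries a group.

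**Figure D4:**
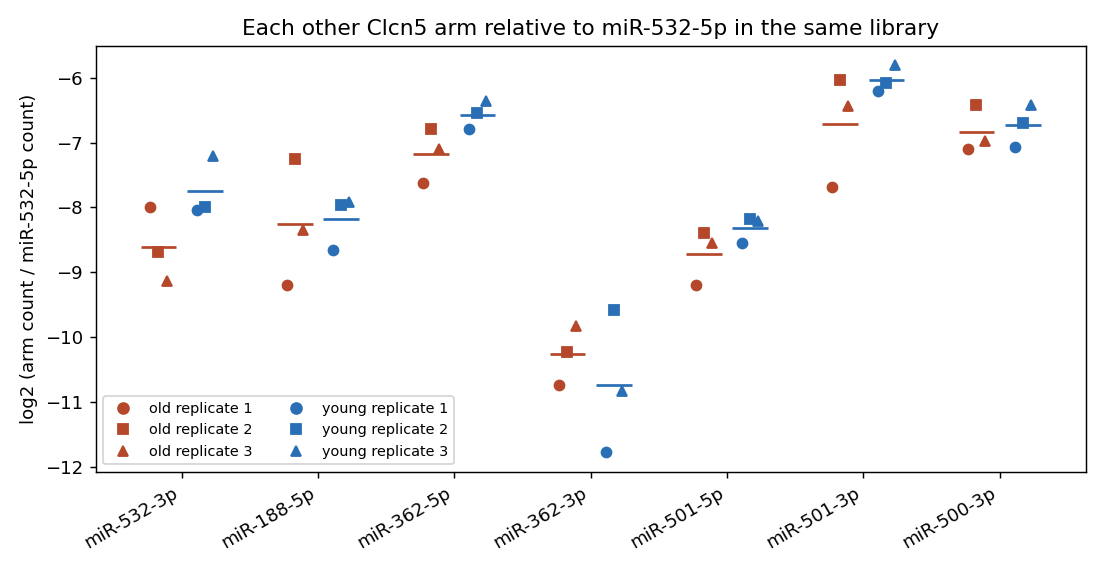
Log2 ratio of the count of each other Clcn5 arm to that of miR-532-5p in the same library, old to the left of young, with bars for the means of 3 libraries. The ratios lie between -11.77 and -5.81, and old and young libraries overlap for each of the 7 arms.

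miR-652-3p, from introns of Tmem164 elsewhere on chromosome X, had a positive log2 fold change, where 7 of the 8 Clcn5 arms had negative ones. It had 3479, 3028 and 3799.7 CPM in old, against 2623, 2757 and 2282 CPM in young libraries. Every old library was above every young one, which held for 14.1% of all tested loci in this direction. The log2 fold change was 0.43 ± 0.16 (edgeR adjusted p = 0.139), and over the alternatives tried it ranged from 0.33 to 0.51. With a mean of 2995 CPM it ranked 40 of all loci, and miR-532-5p had 4.47 times its level. It held 99.6% ± 0.225 of the Mir652 counts in old and 99.3% ± 0.268 in young libraries (SD, n = 3 each). Its partner miR-652-5p, not a member, had 23.2, 7.88 and 10.9 CPM in old and 26.9, 13.2 and 17.3 CPM in young libraries, with a log2 fold change of -0.49 ± 0.45 (edgeR adjusted p = 0.593).

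Values below 0 were not particular to the Clcn5 intron among X-linked miRNAs. In another X-linked cluster, of miR-322, miR-351, miR-450a, miR-450b, miR-503 and miR-542, 8 of 11 tested loci were below 0 with a median of -0.45. One of them, miR-351-5p, fell, with 532 ± 85.1 CPM in old and 998 ± 121 CPM in young libraries (log2 fold change -0.91 ± 0.18, edgeR adjusted p = 0.00599). The most abundant miRNA of that cluster, miR-322-5p, averaged 2587 CPM in old and 3684 CPM in young libraries and did not pass (log2 fold change -0.51 ± 0.19, edgeR adjusted p = 0.139). Over all tested chromosome X loci outside the members, 23 of 34 were below 0 with a median of -0.26. This set includes the 11 tested loci of that cluster and was chosen after the values were seen.

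The library pattern of the summed members was closest to that of miR-350-3p and miR-191-5p, then miR-675-3p, miR-28a-5p and miR-298-5p. Likeness was the root mean square difference in log2 CPM over 6 libraries after centring each on its own mean, which was 0.088 and 0.090 for the first pair and 0.116 for the last, against a median of 0.356 over 301 mature miRNAs compared. Without miR-652-3p in the sum the order began with the same pair, at 0.066 and 0.097. The sum follows miR-532-5p, so this likeness does not describe the low tier.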

How the data were processed

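The authors deposited unnormalised read counts, 1 row per mature miRNA locus, made with featureCounts 2.0.6, per the file headers. Alignment was to mm10 with BWA, per the submitters' processing notes, and neither its version nor the trimming is stated there. Counting had no strand, overlap or multi-mapping option, per the file headers.

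Loci were named by matching coordinates to RefSeq mature miRNAs on GRCm38.p6 (1734 of 2110 exactly) and otherwise by the enclosing RefSeq or GENCODE M21 hairpin. Old and young (3 libraries each, grouped by title) were compared with edgeR 4.0.16 in R 4.3.3 by the quasi-likelihood test on all loci, after filterByExpr (minimum count 10, minimum total 15) and TMM, with Benjamini-Hochberg adjustment over 347 loci. Standard errors were derived from the F statistics. Arm ratios are log2 of counts plus 0.5, tested by exact permutation with scipy 1.17.1. Named non-members are the 5 most alike in library pattern and the 2 most abundant of the X-linked cluster that holds miR-322. Members, lists and tests were chosen with earlier results of these data known.

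Depth was 904892 to 1706396 counts per library. On simulated counts for old against young (358 loci tested), the test recovered 5 of 25 loci at 1.5-fold, 20 of 29 at 2-fold and 28 of 28 at 4-fold, with 1 false call. The simulation gave all loci the same spread between libraries (common dispersion 0.0392) and, apart from the set changes, all libraries the same mean profile. It did not include the departure of old replicate 1, so these figures may not hold for the real libraries. Alternatives were DESeq2 1.42.0, its size factors, no filter, summed copies, TMM without miR-21a-5p, a replicate block, other prior counts and leaving out each library.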

Additional observations from a re-analysis of the deposited data

How the results depend on the processing

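Loci called higher and lower in old numbered 12 and 3 with all libraries. DESeq2 called 14 higher, 9 lower and 1 member, miR-362-5p at -0.74. Without the filter, with copies summed or with TMM without miR-21a-5p, 5 loci were lower and no member was called. Leaving out each library gave 5 to 25 higher, 0 to 20 lower (25 and 20 without old replicate 1) and 0 to 2 members. The labels do not say whether replicate numbers pair the libraries. Deviations of same-numbered libraries from their group means correlated at -0.134, 0.024 and -0.146 over 347 loci, and no library correlated best with its own number. With so few libraries a group, these correlations cannot exclude a pairing. With the replicate block 5 were higher, 1 was lower and no member was called.

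Leaving out each library, log2 fold changes ranged from -0.23 to -0.03 for miR-532-5p, -1.44 to -0.69 for miR-532-3p, -0.59 to 0.20 for miR-188-5p, -0.81 to -0.61 for miR-362-5p and -0.26 to 0.86 for miR-362-3p. They ranged from -0.64 to -0.40 for miR-501-5p, -0.94 to -0.43 for miR-501-3p, -0.37 to -0.14 for miR-500-3p and 0.33 to 0.51 for miR-652-3p. Ratios to miR-532-5p, old minus young, ranged from -0.59 to 0.38 for miR-188-5p, -0.05 to 1.04 for miR-362-3p and -0.31 to 0.05 for miR-500-3p, and the summed share of the 9 members from -0.22 to 0.0854 percentage points. The cause of these shifts was not tested. Prior counts of 0 and 2 kept the direction of each arm ratio. Depth limits miR-362-3p most, at 6 to 28 counts a library.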
